A study of Rattus norvegicus with 12 samples.

Results

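The genes described here are those of the proteasome and its helpers in the hypothalamic arcuate nucleus (ARC) of adult rats. They were chosen by symbol alone: a probe set was taken when the platform annotation gave it a single gene symbol that starts with Psm, a letter from a to g and a digit, and each gene was represented by its probe set with the highest mean over all arrays. This rule found 46 genes, from 60 probe sets, among the 14217 genes that had a probe set of their own on the array. Of these, 44 encode subunits, activators, an inhibitor or assembly chaperones, and 2 only carry the name of a subunit. A further 6 probe sets shared a matching symbol with other genes and were not used, so Psmb6 and Psme3 have no value here, and neither do Psma3l, Psma8 and Psmb11. All 12 animals were male Wistar rats of 3 months, 1 animal per array. The question was whether low maternal protein in pregnancy followed by catch-up growth left a change in expression that lasted into adult life. The 6 controls were offspring of control dams, while the 6 recuperated animals had mothers on a low-protein diet with 8% protein and were nursed by control dams, with both groups set on postnatal day 3 and fed standard chow afterwards. The recuperated litters were also culled to fewer pups than the control litters, and to males only, to raise their nutrition in suckling. Diet of the mother and litter size therefore cannot be told apart here. The ARC was cut from frozen, cresyl violet-stained sections by laser capture microdissection, and its RNA was amplified, labelled and hybridised to an Affymetrix rat expression array. Values below are log2 signals above the median of the same array, and they compare 1 gene between animals, never 1 gene with another.

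The proteasome is the protease that removes most short-lived and damaged proteins in the cytosol and nucleus. Its core is a barrel of stacked rings: the outer rings are built from alpha subunits (Psma genes), which gate the entry, and the inner rings from beta subunits (Psmb genes), some of which hold the active sites. A cap sits on the barrel; its base contains the ring of ATPases (Psmc genes) that unfolds substrates, and its lid (Psmd genes) removes the ubiquitin tag. Interferon induces alternative catalytic subunits, Psmb8, Psmb9 and Psmb10, which take the places of Psmb5, Psmb6 and Psmb7 in newly built particles, giving the immunoproteasome that trims peptides for antigen presentation. In brain tissue microglia are a known source of these subunits. Neurons rely on the constitutive particle for protein turnover at synapses.

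One recuperated array stood apart in its cell markers. On recuperated array 4 the mean level of 12 ARC markers was 0.79, against 2.86 to 3.13 on the other arrays, and that of 5 ventromedial nucleus markers was 2.71, against -0.49 to 0.95. Its mean over 8 tanycyte and ependyma markers was -0.23, against 1.13 to 1.74, and over 13 microglia markers 0.47, against 0.82 to 1.39. The overall counts, the immunoproteasome genes and some of the other genes that moved with this array are therefore also given without it. So are the medians of several role classes, whether or not they moved. In tissue RNA, fewer cells of a type and less RNA per cell cannot be told apart. Of the 12 ARC markers 8 were above the array median on all 12 arrays, while Slc6a3 was above it on 5 and Pomc on 0, with values from -0.75 to -0.06.

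No proteasome gene passed the adjusted test in recuperated animals when compared with controls. With limma and Benjamini-Hochberg adjustment over 31042 probe sets, 0 of 46 were called (smallest adjusted p = 0.999), and the share called over all probe sets was 0.0%. At an unadjusted limma p under 0.05, 2 of 46 were lower (Psma2 and Psmd8) and 0 higher, where 3.45% of all probe sets passed. With the methods' t-test on the same values 0 were called after adjustment and 4 before it, the other two being Psma1 and Psmd4, where 3.42% of all probe sets passed before adjustment. The study's own threshold of 1.3-fold with P under 0.05 was met by 0 genes in either direction; over all probe sets it was met by 1.2% as higher and 1.27% as lower. In 0 of 46 genes did the groups fail to overlap, where 0.139% of all probe sets did.

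The differences were small and mostly below 0. Of the 46 genes, 38 had a lower mean in recuperated animals and 8 a higher one, that is 82.6% below 0 where 56.4% of all probe sets were, and the median log2 fold change was -0.065 where that of all probe sets was -0.028. Without recuperated array 4, the median was -0.057, where that of all probe sets was -0.026, and 34 genes were below 0. Without recuperated array 5, the median was -0.0435, where that of all probe sets was -0.034, and 32 genes were below 0. Many of these differences were also bounded. The 95% interval lay inside 1.3-fold either way for 23 of 46 genes (50.0%), against 19.6% of all probe sets and 22.7% of those above their array median on at least 6 arrays. The median SD within groups was 0.189 for the proteasome genes and 0.316 for all probe sets. The signal was above the array median on all 12 arrays for 45 of the 46, the exception being Psmb8.

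**Figure D1:**
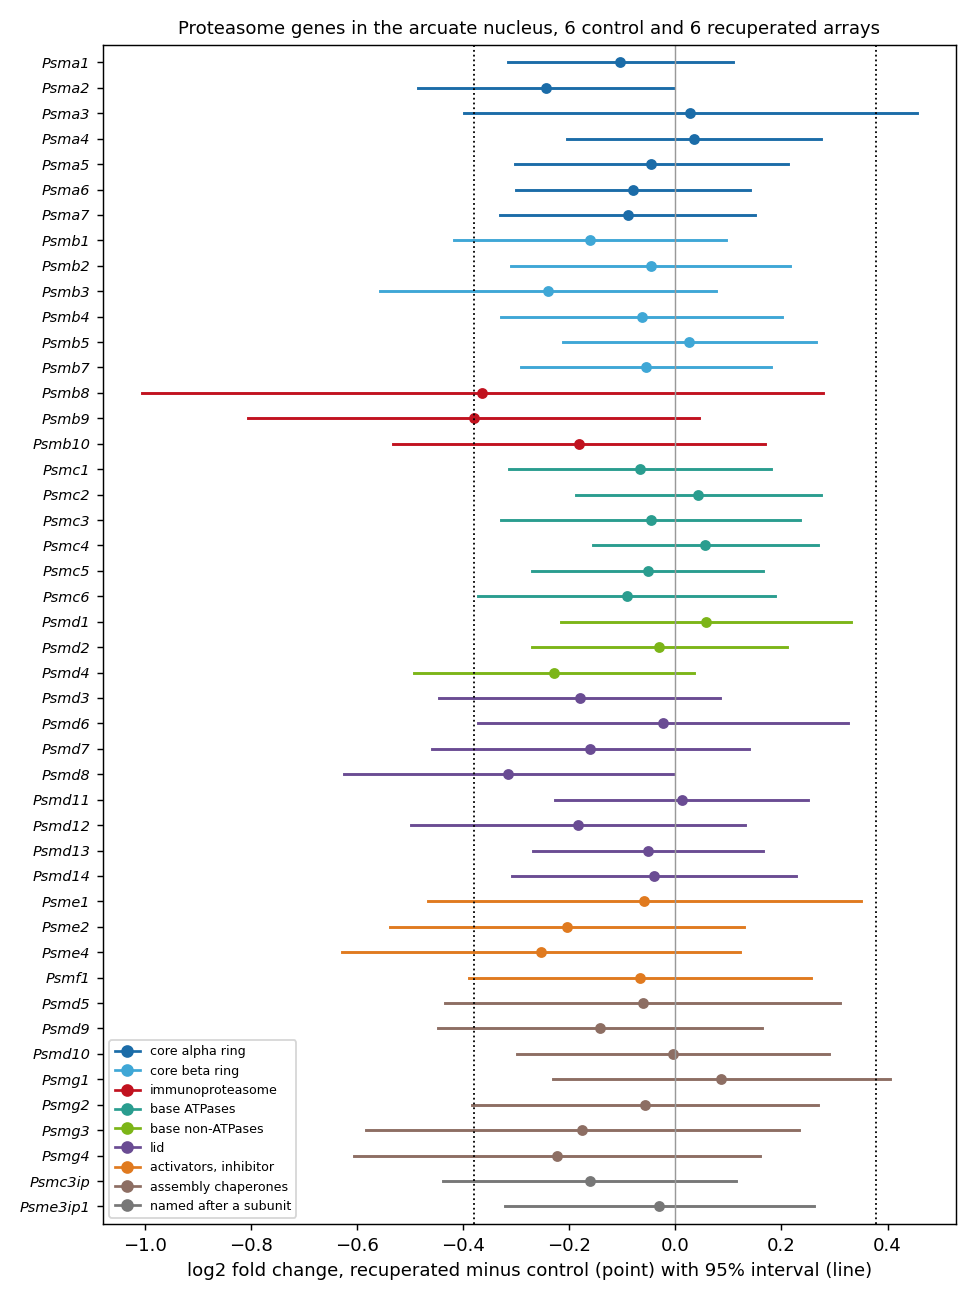
Each point is the log2 fold change of 1 proteasome gene, recuperated minus control, with its 95% limma interval as a line, coloured by role; dotted lines mark 1.3-fold either way. Most points lie slightly to the left of 0, the base ATPases are inside the dotted lines with their whole intervals, and Psmb8 and Psmb9 have the lowest points and wide intervals.

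The constitutive core, base and lid hold 30 of these genes, and they differed little between the groups. Of the 30, 23 were below 0, with a median log2 fold change of -0.053 (-0.052 without recuperated array 4). Of the same genes, 21 (70.0%) had an interval inside 1.3-fold. Their mean level on each array ran from 4.24 to 4.34 in the controls and from 4.08 to 4.27 in recuperated animals, the lowest means being those of recuperated arrays 5 (4.08) and 4 (4.12). The means of the other 4 recuperated arrays lay within or just below the control range.

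The outer ring of the core was measured through Psma1 to Psma7. In 5 of 7 genes the mean was lower in recuperated animals, 1 of 7 passed the unadjusted test, and 5 had an interval inside 1.3-fold. The gene at the unadjusted threshold was Psma2, an outer-ring subunit. Psma2 signal was 5.00, 5.215 and 5.42 (lowest, median and highest) in the controls and 4.73, 4.98 and 5.05 in recuperated animals. The 2 groups overlapped only where recuperated arrays 1 and 3, both at 5.05, exceeded control array 3 at 5.00. The log2 fold change of Psma2 was -0.24 (SE 0.11), 1.18-fold lower, with an unadjusted limma p of 0.0487 and an exact permutation p of 0.00866 (two-sided; the smallest the design allows is 0.00216). Without recuperated array 4, its lowest value, it was -0.20 with a limma p of 0.0998. Psma1, of the same ring, had the narrowest spread of all 46 genes, with an SD of 0.077. Its signal was 4.14, 4.185 and 4.34 in the controls and 4.02, 4.085 and 4.21 in recuperated animals, overlapping over a short range. This is a log2 fold change of -0.10 (SE 0.10) with an exact permutation p of 0.0476, while limma, which draws such small variances towards those of other probe sets, gave a p of 0.312. Psma3 was the most variable of the ring (SD 0.364), and its log2 fold change of 0.03 had an interval from -0.40 to 0.46, too wide to bound it at 1.3-fold. The remaining members, Psma4, Psma5, Psma6 and Psma7, had log2 fold changes between -0.09 and 0.04.

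In the inner ring 6 genes were measured, 5 of them below 0, with 4 intervals inside 1.3-fold and 0 past the unadjusted test. Psmb3, a structural subunit without an active site, had the smallest p of these. Psmb3 signal was 3.97, 4.285 and 4.44 in the controls and 3.69, 3.91 and 4.47 in recuperated animals, so that the highest of all 12 values was a recuperated one. Its log2 fold change was -0.24 (SE 0.15), with an exact permutation p of 0.123, and -0.17 without recuperated array 4, its lowest value. Psmb1, the other named subunit of this kind, ran 4.03, 4.25 and 4.34 in the controls against 3.79, 4.045 and 4.33, a log2 fold change of -0.16 (SE 0.12; exact permutation p = 0.115), and -0.11 without recuperated array 4. Psmb2 and Psmb4 stood at -0.05 and -0.06, and at 0.03 and -0.03 without recuperated array 4. The catalytic subunits that the immunoproteasome replaces varied little between animals (SD 0.132 for Psmb5 and 0.125 for Psmb7). Psmb5, the chymotrypsin-like site, was 4.74, 4.875 and 4.94 in the controls and 4.60, 4.895 and 5.06 in recuperated animals. Psmb7, the trypsin-like site, was 5.45, 5.5 and 5.52 in the controls and 5.14, 5.45 and 5.61 in recuperated animals. For both, the recuperated values spread to either side of the controls. The log2 fold change was 0.03 for Psmb5 (95% interval -0.21 to 0.27; exact permutation p = 0.758) and -0.06 for Psmb7 (-0.29 to 0.18; exact permutation p = 0.552), each inside 1.3-fold.

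The immunoproteasome subunits Psmb8, Psmb9 and Psmb10 had lower means in recuperated animals, but none passed a test. Their median log2 fold change was -0.363, and -0.140 without recuperated array 4, and 0 of 3 had an interval inside 1.3-fold. Psmb9 signal was 2.84, 3.375 and 3.93 in the controls and 2.33, 3.15 and 3.27 in recuperated animals. Of the 6 recuperated values 5 lay between 2.95 and 3.27, inside the control range, and that of array 4 lay below it. Its log2 fold change was -0.38 (SE 0.20; 95% interval -0.81 to 0.05), a 1.3-fold difference, with a limma p of 0.0759 and an exact permutation p of 0.104. Leaving out recuperated array 4 gave -0.24 with an unadjusted limma p of 0.184. Leaving out control array 1, the lowest control, gave -0.49, past 1.3-fold with an unadjusted limma p under 0.05. Psmb8 had the largest spread of the 46 genes (SD 0.587): its signal was 0.22, 1.085 and 1.35 in the controls and -0.50, 0.875 and 1.29 in recuperated animals. The low values were those of recuperated arrays 4 (-0.50) and 6 (-0.05) and control array 6 (0.22), and the other 9 arrays lay between 0.82 and 1.35. The log2 fold change of Psmb8 was -0.36 (SE 0.30; -1.01 to 0.28; exact permutation p = 0.284), -0.14 without recuperated array 4 and -0.23 without recuperated array 6. Psmb10 was 2.10, 2.485 and 2.60 in the controls and 1.82, 2.335 and 2.70 in recuperated animals, with recuperated arrays 4 and 5 below all others. Its log2 fold change was -0.18 (SE 0.16; -0.53 to 0.17; exact permutation p = 0.277), -0.10 without array 4 and -0.09 without array 5. Each of the 3 intervals held both 0 and a 1.3-fold lower level.

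**Figure D2:**
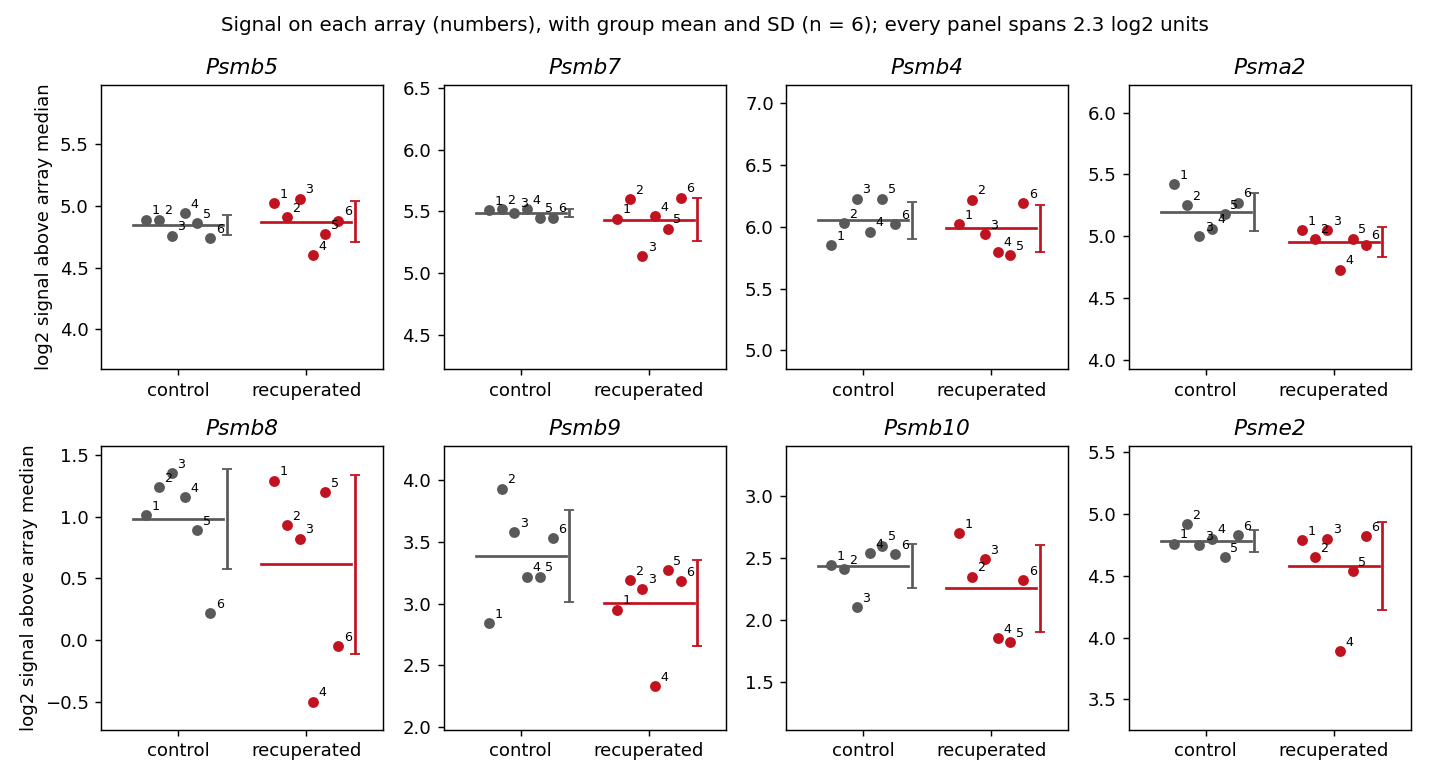
Log2 signal above the array median (vertical axis) of 8 proteasome genes on each array, numbered by animal, in control (grey) and recuperated (red) animals; lines are group means and bars 1 SD (n = 6), and every panel has the same height in log2 units. The constitutive subunits Psmb5, Psmb7 and Psmb4 overlap between the groups, Psma2 is lower in most recuperated animals, and in Psmb8, Psmb9 and Psme2 recuperated array 4 is the lowest point.

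The sequences at the starts of Psmb5, Psmb8, Psmb9 and Psmb10 differ in the response elements they hold. These sequences are shown because the constitutive and the interferon-induced subunits were described side by side above. They are RefSeq sequences of the assembly GRCr8, written 5′ to 3′ on the strand of the gene. For Psmb5, Psmb9 and Psmb10 the 180 bases before the annotated start are given, and for Psmb8 the 30 bases around its match, which begins after the start. Capitals in Psmb5 mark the core of an antioxidant response element (TGACNNNGC), bound by Nrf factors. Capitals in Psmb10 and Psmb8 mark an interferon-stimulated response element, searched on both strands as GAAA, any pair of bases and GAAA; in Psmb8 it lies on the opposite strand.
Psmb5, chr15:32047380-32047559, minus strand: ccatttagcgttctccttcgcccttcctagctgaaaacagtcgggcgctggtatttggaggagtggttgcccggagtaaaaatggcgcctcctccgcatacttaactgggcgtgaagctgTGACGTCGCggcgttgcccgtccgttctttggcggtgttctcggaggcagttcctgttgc
Psmb10, chr19:50743293-50743472, minus strand: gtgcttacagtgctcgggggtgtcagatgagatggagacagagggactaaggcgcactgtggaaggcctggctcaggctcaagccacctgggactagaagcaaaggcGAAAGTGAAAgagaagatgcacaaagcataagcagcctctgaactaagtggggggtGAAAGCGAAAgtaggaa
Psmb8, chr20:4657016-4657045, minus strand: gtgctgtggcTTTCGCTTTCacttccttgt
Psmb9, chr20:4668772-4668951, plus strand: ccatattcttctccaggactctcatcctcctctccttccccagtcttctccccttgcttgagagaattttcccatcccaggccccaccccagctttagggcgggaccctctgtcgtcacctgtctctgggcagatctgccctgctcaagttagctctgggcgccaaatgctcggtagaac
Psmb10 carries the element at 2 places and Psmb8 at 1, whereas the stretch of Psmb9 holds no match to these letters. The 180 bases before the start of Psmb8 hold no match either. Psmb7, not shown, held neither the antioxidant core nor the interferon element in the promoter search below. Psmb8 and Psmb9 lie beside the peptide transporter genes in the major histocompatibility region, Psmb8 between Tap2 and Tap1 and Psmb9 between Tap1 and RT1-DMb. Both transporter genes were near or below the array median, at log2 fold changes of 0.19 for Tap1 and 0.10 for Tap2 (exact permutation p = 0.478 and 0.526). Their intervals held 0, as did those of Psmb8 and Psmb9, so a difference in direction between these neighbours is not established.

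A search of 300-base promoters, from 250 bases before the start to 50 after it, covered 42 of the 46 genes; Psma7, Psmd6, Psmd12 and Psmd14 had no entry. The interferon-stimulated element occurred in 7 of 42 (16.7%), namely Psma4, Psmb3, Psmb8, Psmb10, Psmd7, Psme2 and Psmg4, against 3.92% of all 33469 promoters and 3.70% of the 21851 of coding genes. In Psme2 the only match was placed further after the annotated start than this range reaches, so its count is uncertain. A gamma-activated site (TTCNNNGAA) occurred in 4 (9.52%), against 8.87% and 8.32%. The antioxidant core occurred in 7 (16.7%), against 12.1% and 12.5%, the 7 being Psma3, Psmb2, Psmb5, Psmd1, Psmd3, Psmd9 and Psme4. More widely shared were an ETS site (CGGAAG), in 22 (52.4%) against 16.6% and 19.8%, a GC box (GGGCGG), in 29 (69.0%) against 33.1% and 41.8%, and a CCAAT box, in 22 (52.4%) against 37.5% and 38.0%. All were searched on both strands, and matches describe letters only.

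The ring of ATPases was the most closely bounded of the role classes. All 6 genes, Psmc1 to Psmc6, had intervals inside 1.3-fold, with log2 fold changes from -0.09 to 0.06, a median of -0.049 (-0.007 without recuperated array 4) and 4 of 6 below 0. The smallest p was that of Psmc6, at 3.38, 3.66 and 3.87 in the controls and 3.19, 3.615 and 3.78 in recuperated animals. It was followed by Psmc1, at 5.31, 5.44 and 5.51 against 5.05, 5.38 and 5.54. In neither gene did the groups separate (exact permutation p = 0.452 for Psmc6 and 0.485 for Psmc1), and the log2 fold changes were -0.09 (SE 0.13) and -0.07 (SE 0.12). Each rested on 1 array: Psmc6 stood at -0.02 without recuperated array 4, and Psmc1 at -0.005 without recuperated array 5.

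Of the base subunits without ATPase activity, Psmd4, a receptor for ubiquitin chains, was lower in mean and Psmd1, a scaffold subunit, slightly higher. Psmd4 signal was 2.59, 2.955 and 3.16 in the controls and 2.51, 2.73 and 2.86 in recuperated animals, and without control array 3 (2.59) the lowest control value was 2.88, above all recuperated ones. Its log2 fold change was -0.23 (SE 0.12; -0.49 to 0.04), with an exact permutation p of 0.0455 and a limma p of 0.0848. Without recuperated array 4, its lowest value, it was -0.19 with a limma p of 0.158, and without control array 3 it was -0.30. Psmd1 was 3.82, 4.175 and 4.38 in the controls and 4.05, 4.14 and 4.52 in recuperated animals, a log2 fold change of 0.06 (SE 0.13; exact permutation p = 0.606). Psmd2, its partner scaffold, stood at -0.03, inside 1.3-fold. The median of these 3 genes was -0.03, and -0.054 without recuperated array 4.

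In the lid the mean was lower in recuperated animals in 7 of 8 genes, and 4 of 8 intervals lay inside 1.3-fold. The median log2 fold change was -0.106, with or without recuperated array 4. Psmd8, a structural lid subunit, was 1 of the 2 genes at the unadjusted threshold. Its signal was 1.45, 1.61 and 2.17 in the controls and 1.15, 1.465 and 1.53 in recuperated animals. The 3 highest values were those of control arrays 1, 4 and 3, whereas the other 3 controls, at 1.45 to 1.51, lay among the recuperated ones. The log2 fold change of Psmd8 was -0.32 (SE 0.14), 1.24-fold lower, with an unadjusted limma p of 0.0468 and an exact permutation p of 0.0498. Leaving out recuperated array 4 gave -0.29, with an unadjusted limma p of 0.0793. Psmd3, another structural subunit, was 3.44, 3.65 and 3.82 in the controls and 3.27, 3.405 and 3.85 in recuperated animals, a log2 fold change of -0.18 (SE 0.12; exact permutation p = 0.102). The subunit that cleaves ubiquitin chains from substrates, Psmd14, stood at -0.04 (-0.31 to 0.23) on the log2 scale. Psmd6, Psmd7, Psmd11, Psmd12 and Psmd13 had log2 fold changes from -0.18 to 0.01.

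Both unadjusted calls lay close to the threshold and were lost when any of several single arrays was left out. The loss did not need a smaller difference: without recuperated array 2 or 5 the log2 fold change of Psma2 was -0.249, beside -0.243 with all arrays. Neither Psma2 nor Psmd8 passed without recuperated array 2, 4, 5 or 6. Psma2 also failed without control array 1, 2, 5 or 6, and Psmd8 without control array 1, 3 or 4 or recuperated array 1. The log2 fold change over all these omissions stayed between -0.28 and -0.20 for Psma2 and between -0.37 and -0.22 for Psmd8.

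Activators open the gate of the barrel in place of the cap, and the inhibitor Psmf1 competes with them. All 4 genes measured had log2 fold changes below 0 (median -0.135, and -0.047 without recuperated array 4), 0 passed the unadjusted test, and 0 had an interval inside 1.3-fold. Psme4, a large nuclear activator, was 1.15, 1.48 and 1.96 in the controls and 0.91, 1.265 and 1.66 in recuperated animals. Its log2 fold change was -0.25 (SE 0.17; exact permutation p = 0.184), with wide overlap, and -0.16 without control array 1. A second probe set of Psme4, nearly as bright, gave -0.045 (SE 0.12). Psme2, which with Psme1 forms the interferon-induced activator, was 4.65, 4.78 and 4.92 in the controls and 3.89, 4.72 and 4.82 in recuperated animals. Recuperated array 4 gave the lowest value of Psme2 and of Psme1, 3.89 and 4.11. Without it the log2 fold change of Psme2 went from -0.20 (SE 0.16; exact permutation p = 0.184) to -0.07, and that of Psme1 from -0.06 to 0.11. Psmf1 stood at -0.07 (-0.39 to 0.26).

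Assembly chaperones build the rings and the base and leave the finished particle. Of 7 measured, 6 had log2 fold changes below 0, 0 passed the unadjusted test, and 1 interval lay inside 1.3-fold. Their median log2 fold change was -0.062, and -0.068 without recuperated array 4. These genes varied more between animals (median SD 0.251). Psmg4, a chaperone of the outer ring, was 1.02, 1.305 and 1.88 in the controls and 0.76, 1.06 and 1.68 in recuperated animals (log2 fold change -0.22, SE 0.18, exact permutation p = 0.253). Psmd9, a chaperone of the base, was 0.78, 1.20 and 1.28 in the controls and 0.52, 0.995 and 1.28 in recuperated animals, the highest value being the same in both groups (log2 fold change -0.14, SE 0.14, exact permutation p = 0.323). Leaving out control array 4 brought Psmg4 to -0.12, and leaving out recuperated array 4 brought it to -0.15. Leaving out recuperated array 2 brought Psmd9 to -0.05. Psmg1, Psmg2, Psmg3, Psmd5 and Psmd10 had log2 fold changes from -0.18 to 0.09. The 2 genes that only carry a subunit's name, Psmc3ip, a cofactor of meiotic recombination, and Psme3ip1, stood at -0.16 and -0.03.

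Across arrays the low values were gathered in 2 recuperated animals. The lowest of the 12 values was found on recuperated array 4 in 15 genes and on recuperated array 5 in 12. On each other array it was found in 0 to 5 genes. Array 4 also held the lowest value for 14.4% of all probe sets, and for 16.8% of those above their array median on at least 6 arrays. The share of all probe sets at their lowest on array 5 was not determined. The mean over the 46 genes was 3.39 on array 4 and 3.44 on array 5, against 3.60 to 3.64 on the other 4 recuperated arrays and 3.61 to 3.72 in the controls. The genes at their lowest on array 4 included Psmb8, Psmb9, Psme1, Psme2 and Psmd10, and those on array 5 Psmd12, Psmg3 and Psmd8. As measures of RNA integrity, the actin 3′ minus 5′ signal was 1.96 on array 4 and 1.52 on array 5, against 1.25 to 1.72 in the controls, and that of Gapdh was 1.84 and 1.77, against 1.49 to 2.50. That of hexokinase was 0.50 and 0.42, against -0.45 to 0.57. Recuperated array 2, with a mean over the 46 genes of 3.64, stood at 1.90 for actin and 2.63 for Gapdh. The part of these integrity measures in the low values was not tested.

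**Figure D3:**
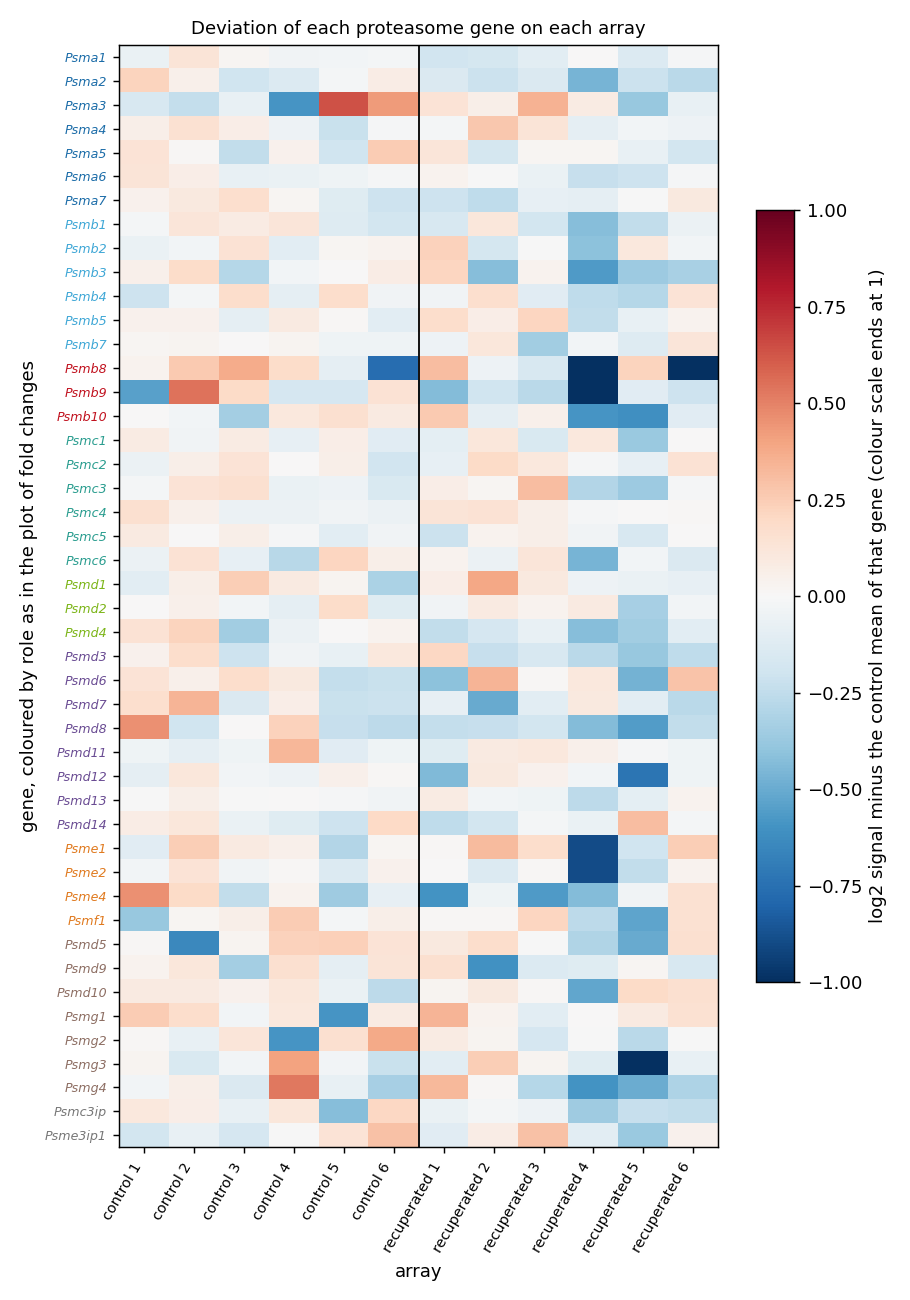
Colour shows the log2 signal of each proteasome gene (rows, grouped by role) on each array (columns) minus the control mean of that gene; the scale ends at 1 log2 unit either way. Blue cells, values below the control mean, are densest in the columns of recuperated arrays 4 and 5, and the end of the scale is reached by Psmb8 on recuperated arrays 4 and 6, Psmb9 on array 4 and Psmg3 on array 5.

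Genes that work with the proteasome without bearing its name were split evenly. Of 31 genes listed, 25 were measured, with log2 fold changes above 0 in 12, below 0 in 12 and equal to 0 in Rad23b, a shuttle factor, and a median of 0.00; 0 passed the unadjusted test and 13 had an interval inside 1.3-fold. Sem1, a small lid subunit, was 3.24, 3.41 and 3.67 in the controls and 2.99, 3.17 and 3.47 in recuperated animals, a log2 fold change of -0.22 (SE 0.13; exact permutation p = 0.0779). Uchl5, a cap-bound enzyme that trims ubiquitin, lay in the other direction at 0.25 (SE 0.15; exact permutation p = 0.123). Ngly1 and Nfe2l2, of the pathways that induce proteasome genes, stood at -0.28 (SE 0.18) and -0.23 (SE 0.19), with exact permutation p of 0.152 and 0.275. Without recuperated array 4, Sem1 stood at -0.17, Uchl5 at 0.19, Ngly1 at -0.22 and Nfe2l2 at -0.15. The mean of this list ran from 3.05 to 3.16 in the controls and from 3.07 to 3.13 in recuperated animals, array 4 included.

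The antigen presentation and interferon genes, to which the immunoproteasome belongs by function, were spread more widely. Of 32 listed 31 were measured, 20 below and 11 above 0 with a median of -0.068 (-0.032 without array 4); 0 were called after adjustment, 3 passed the unadjusted limma test, all lower, and 2 of these met 1.3-fold. Over all probe sets 3.45% passed that test in either direction, and 1.27% passed it and were at least 1.3-fold lower. B2m, the light chain of class I molecules, was 6.27, 6.33 and 6.40 in the controls and 5.42, 6.105 and 6.26 in recuperated animals. The groups did not overlap, with all 6 recuperated values below all 6 controls, and array 4 (5.42) was the lowest. This held for 1 of the 31 genes, where 0.139% of all probe sets had groups that did not overlap. B2m is named here because it is 1 of the 4 genes of smallest limma p in this list. B2m had a log2 fold change of -0.33 (SE 0.14; unadjusted limma p = 0.0324, adjusted p = 0.999; exact permutation p = 0.00216, the smallest the design allows), and -0.21 without array 4 (limma p = 0.0588). The class II gene RT1-Da was -1.31, -1.005 and 0.20 in the controls and -2.27, -1.685 and -1.04 in recuperated animals (log2 fold change -0.79, SE 0.26, exact permutation p = 0.0173), and -0.80 without array 4. It was below the array median on 11 arrays and belongs to a multigene family, so its value is uncertain. Irf7 and Irf8, transcription factors of the interferon response, stood at -0.54 (SE 0.25, exact permutation p = 0.0844) and -0.48 (SE 0.24, exact permutation p = 0.108). Irf7 stood at -0.35 without array 4, where it was lowest. Irf7 and Irf8 were each above the array median on 4 arrays, so their values are uncertain too. Without array 4, 1 gene of this list passed the unadjusted test in place of 3.

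Microglia markers, like the immunoproteasome genes, were lowest on recuperated array 4. The mean of the 3 immunoproteasome genes was 2.09 to 2.53 in the controls and 1.23 (array 4) to 2.31 in recuperated animals, and the mean of 13 microglia markers was 0.99 to 1.39 and 0.47 (array 4) to 1.28. Of the 13 markers 12 had a log2 fold change below 0, with a median of -0.22, and 8 had their lowest value on array 4; 0 passed the unadjusted test. Without array 4 the median of the markers was -0.09, beside -0.14 for the immunoproteasome genes. Endothelial markers, another possible source, ran from 0.47 to 0.84 in the controls and from 0.43 to 0.89 in recuperated animals, with 0.88 on array 4. The part of these markers in the immunoproteasome values was not tested.

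**Figure D4:**
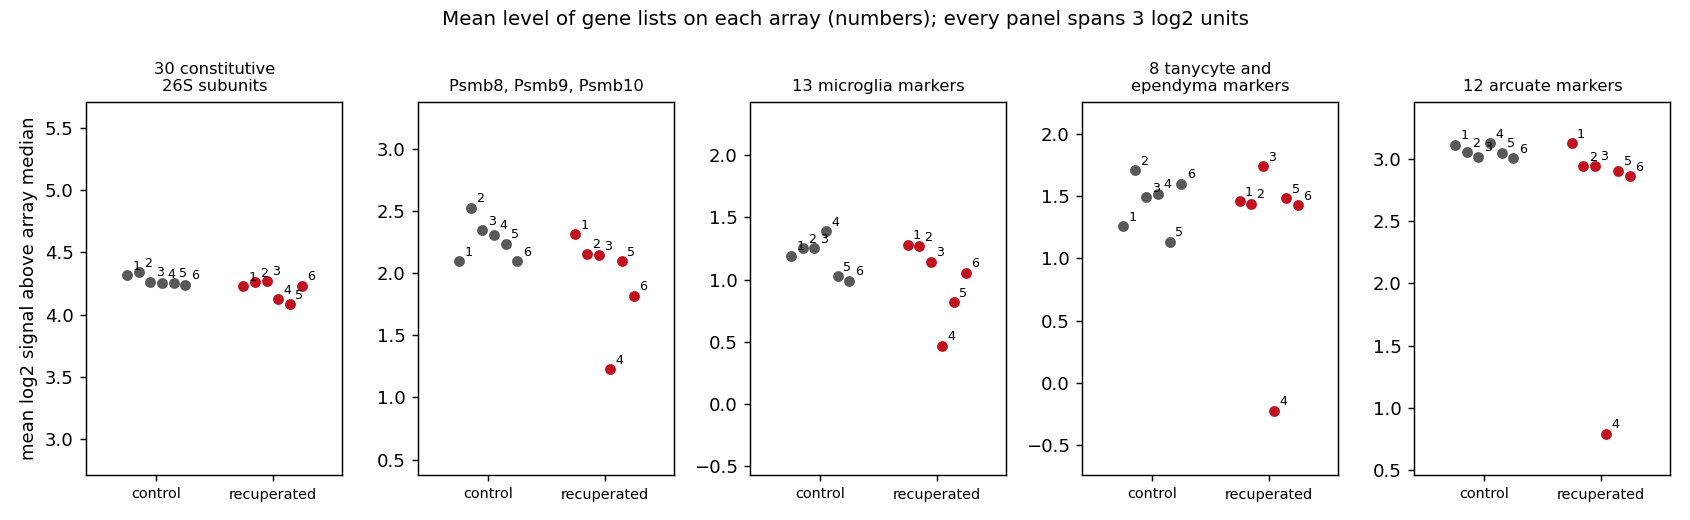
Mean log2 signal above the array median (vertical axis) of 5 gene lists on each array, numbered by animal, in control (grey) and recuperated (red) animals, with the same height in log2 units in every panel. Recuperated array 4 lies below all other arrays for the immunoproteasome genes (1.23), the microglia markers (0.47), the tanycyte and ependyma markers (-0.23) and the ARC markers (0.79), while for the 30 constitutive subunits it is at 4.12, with recuperated array 5 lower at 4.08.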

How the data were processed

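ARC samples of 6 control and 6 recuperated animals were hybridised to 1 array each. The authors deposited log2 expression values made with RMA, which corrects background, quantile-normalizes probes and summarises them by probe set. The submitters' processing notes name RMA with Affymetrix Expression Console and the study's methods name RMA in GeneSpring; which program made the deposited table is not settled. A change shared by most genes cannot be seen after such normalization, and precision is limited by how many arrays there are. No step was repeated. With 57 Affymetrix control probe sets set aside, each array was centred on its median over the other 31042, and the groups were compared with lmFit and eBayes of limma 3.58.1 (R 4.3.3), without covariates, with Benjamini-Hochberg adjustment over all 31042. Single genes were also tested by exact two-sided permutation of the 924 possible arrangements. The fit was tested on simulated data. Python 3.11.15 (numpy 2.4.6, pandas 2.3.3, scipy 1.17.1, matplotlib 3.10.9) made the tables and plots.

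Values per group are given for the 2 genes of smallest limma p in each role class, for Psmb8, Psmb9 and Psmb10, and for Psmb5 and Psmb7, which they replace; the 4 genes of smallest p in each pathway list are named. Every other proteasome gene is named by its class. Values outside this rule (those of Tap1 and Tap2, for example) were chosen after they were seen. The genes, classes, lists and markers were chosen with earlier results of these data known. The list of proteasome partners also held 3 older symbols of its genes, counted once. Of 9 genes with more than 1 probe set the brightest was used; in 5 (Psmb5, Psmc4, Psmd11, Psmd14 and Psme1) the probe sets differ in sign. The alternatives were no centring, quantile normalization of the deposited values, a filter on dim probe sets, the animal number as a block, array weights, an average over a gene's probe sets, the t-test of the methods, and leaving out each array. Animals with the same number did not deviate together (correlations from -0.16 to 0.08).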

Additional observations from a re-analysis of the deposited data

Results flagged for a closer look

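In each gene and group, the gap between the most extreme animal and its nearest neighbour was divided by the range of the group and compared with Dixon's 95% critical value for 6 values. Of 92 such comparisons 8 exceeded it, where chance would give about 1 in 20, and 3 of the 8 were on recuperated array 4. On that array Psmb9 was at 2.33, with the other 5 recuperated values from 2.95 to 3.27. Psmd10 (3.87, against 4.40 to 4.58) and Psme2 (3.89, against 4.54 to 4.82) were low on the same array. Recuperated array 5 was low in Psmd2 (3.99, against 4.28 to 4.41), a scaffold of the base, and in Psmg3 (0.75, against 1.64 to 2.01), a chaperone of the outer ring. Among the controls, array 4 was high in Psmd11 (3.98, against 3.54 to 3.61), array 2 was low in Psmd5 (1.3, against 1.95 to 2.18) and array 5 was low in Psmg1 (2.97, against 3.53 to 3.81). No cause was tested for these values.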

How the results depend on the processing

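The number of proteasome genes called after adjustment was 0 under all 19 alternatives. Their median log2 fold change stayed below 0, between -0.098 and -0.044, in the 18 that recompute it. The median of all probe sets was below 0 as well, from -0.0343 without control array 5 to -0.0083 without centring. Where the median of the proteasome genes was nearest 0, at -0.0435 without recuperated array 5, that of all probe sets was -0.034. The number past 1.3-fold with P under 0.05 was 0 in every alternative except 1 that left out an array: across those omissions it ran from 0 to 1, the 1 being Psmb9 without control array 1. Of the 19 genes described by group, 16 kept their sign throughout. The exceptions lay close to 0: with an array left out, Psmd1 ran from -0.00733 to 0.108, Psmb5 from -0.0107 to 0.0813 and Psmb7 from -0.0900 to 0.004, and with the mean over its probe sets Psmb5 was at -0.0583. The 2 unadjusted calls, Psma2 and Psmd8, were lost without centring and under quantile normalization, although their log2 fold changes were close to the main ones (-0.24 and -0.32), at -0.22 and -0.22 for Psma2 and -0.295 and -0.31 for Psmd8. In a paired fit with the animal number as a replicate block the median was -0.065 and 0 genes were called, and the number at an unadjusted p under 0.05 went from 2 to 0; the cause was not tested. These numbers are names only, since same-numbered animals did not deviate together. RMA values hold no measure of depth, and with 6 animals a group the wide intervals of Psmb8, Psmb9 and 6 of the 7 chaperones (not Psmd10) do not separate no difference from 1.3-fold.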
